A study of Homo sapiens with 6 samples.

Results

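The genes described here are 10 members of the kynurenine pathway of tryptophan breakdown and of the aryl hydrocarbon receptor system: TDO2, IDO1, KMO, KYNU, HAAO, QPRT, AHR, AHRR, CYP1A1 and CYP1B1. They were taken by name, and every probe set whose platform gene entry includes one of them was used, which gave 20 of 54613 probe sets and 10 of the 19775 genes measured. All 20 probe sets name a single gene. RNA came from the established human breast tumour line MDA-MB-436, grown in RPMI medium with fetal calf serum, antibiotics and insulin. One group is 3 arrays of wild type cells, and the other is 3 arrays of cells titled NF1-C2S transfected. The series record describes a stable transfection with a plasmid for NF1-C2, which belongs to the nuclear factor I-C proteins. Whether the transfected cells are 1 clone or a pool is not stated in the labels, no group with an empty plasmid is named, and nothing says that replicates came from separate cultures, so errors and p-values measure only how far these arrays differ, which can be technical spread.

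Tryptophan is broken down mainly through kynurenine. TDO2, known from liver, and IDO1, known from cells exposed to interferon gamma, open the indole ring, and the product is hydrolysed to kynurenine. KMO and KYNU then process kynurenine to the substrate of HAAO, which leads to quinolinic acid, and QPRT turns that acid into a precursor of NAD, while KYNU can also cut kynurenine itself to anthranilic acid. Kynurenine and several of its derivatives bind AHR, a ligand-activated transcription factor that pairs with ARNT and induces CYP1A1, CYP1B1 and its own repressor AHRR. In breast tumours the pathway is known mostly for its effects on immune cells and on AHR activity in the tumour cells.

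The values are log2 expression values as deposited, made with RMA, a method that subtracts background, brings the arrays to 1 distribution and summarizes the probes of a probe set. Differences are transfected minus wild type. The members were selected on results of this same contrast, chosen by gene name with the fall of KYNU and other log2 differences in view, so for members the levels, differences and threshold calls are a description and no p-value is given. A probe set is called past the threshold where limma's Benjamini-Hochberg adjusted p over all probe sets is under 0.05.

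KYNU, AHR and CYP1B1 were lower on the transfected arrays on every probe set that reads them, and KMO was lower on 2 of 3 dim ones. AHRR was higher, as was 1 of 2 probe sets of QPRT, while TDO2, IDO1, HAAO and CYP1A1 were not past the threshold. Of the 20 member probe sets, 11 were past the threshold and lower, beside 11.4% of all probe sets, and 2 were past it and higher, beside 10.8% (22.2% in either direction). The groups did not overlap on 13 of the 20, beside 34.9% of all probe sets. Counted by the brightest probe set of each gene, 4 of 10 genes were lower, 1 was higher and 5 were not past the threshold, beside 16.9% lower and 15.0% higher of all 19775 genes. In such bulk RNA, fewer cells with a transcript and less of it per cell cannot be told apart. The median difference was -0.92 over the 20 probe sets and 0.01 over all 54613. KYNU and CYP1B1 enter the first median with 4 probe sets each and KMO with 3, so it does not describe a typical member gene. By brightest probe set, the 5 genes not past the threshold had differences between -0.06 and 0.08.

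**Figure D1:**
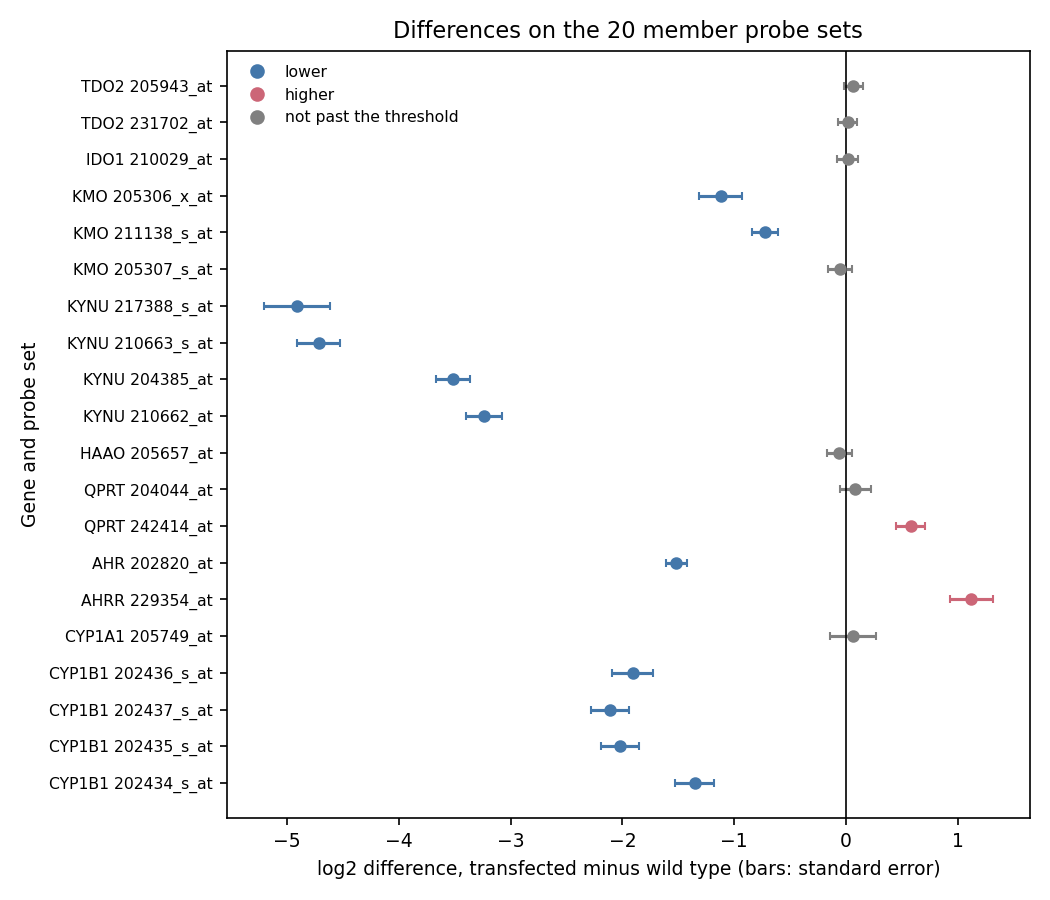
log2 difference (transfected minus wild type) of each of the 20 member probe sets, with bars for the standard error of the fit and colours for the threshold call. The 4 KYNU probe sets lie at the far left between -4.91 and -3.24, AHR and the 4 CYP1B1 probe sets follow, and AHRR lies farthest to the right at 1.12.

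The arrays as a whole set the frame for these values. Correlations between arrays of a group were 0.992 to 0.997, and the median SD over probe sets was 0.110 in the wild type and 0.119 in the transfected group. No probe set of NFIC, the gene of the transfected factor, passed the threshold upward. The brightest of the 4, 226895_at, had means of 8.47 and 8.25, lower by limma over genes (adjusted p = 0.0469) but not over probe sets (0.082), against what the label would give. Its other probe sets differed by -0.11, -0.51 and 0.22 (limma adjusted p = 0.568, 0.0536 and 0.466). Whether any probe set lies in the part carried by the plasmid is not stated, so this gene gives no check of the labels, on which the directions rest. Of the 5 epithelial markers measured, KRT18 was high at 12.55 and lower in the transfected group at 11.62 (limma adjusted p = 0.000136). KRT8 read 6.59 and 6.64 and EPCAM 5.71 and 4.96, and neither passed (limma adjusted p = 0.814 and 0.0601). KRT19 and CDH1, a defining adhesion molecule of epithelium, lay under 4.82, the median of all values, in both groups. Of the 3 mesenchymal markers, VIM fell from 13.54 to 13.01 (limma adjusted p = 0.000644) and FN1 from 10.21 to 7.44 (5.78e-06), and SPARC was dim at 3.26 and 3.20. The part of these marker changes in the member differences was not tested. Wild type replicate 3 was the highest wild type array on 16 of the 20 member probe sets, beside 31.8% of all probe sets, and the differences below are therefore also given without it where they move most. On 12 of the 20 probe sets the value of that array carries more decimals than the others. The whole table holds 6354 values written that way. Without control probe sets, their median offset from the mean of the other wild type arrays was 0.0014. Shifts up and down can cancel in such a median, so it does not speak for single probe sets.

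The 250 bases before the start of 3 members are printed because they show members with and without the motif by which AHR and ARNT bind DNA, and the largest difference among the members. The core motif GCGTG was searched on both strands (CACGC on the other), and matches are in capitals. Sequences are from RefSeq, build GRCh38.p14, 5′ to 3′ on the gene's strand. KYNU lies on the plus strand at chr2:142877414-142877663, AHRR on the plus strand at chr5:321464-321713, and CYP1A1 on the minus strand at chr15:74725529-74725778.
KYNU: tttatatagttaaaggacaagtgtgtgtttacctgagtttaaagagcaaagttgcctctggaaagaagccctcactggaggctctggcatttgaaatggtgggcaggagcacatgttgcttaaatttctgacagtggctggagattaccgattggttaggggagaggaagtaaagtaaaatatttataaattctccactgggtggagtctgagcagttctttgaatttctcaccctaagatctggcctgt
AHRR: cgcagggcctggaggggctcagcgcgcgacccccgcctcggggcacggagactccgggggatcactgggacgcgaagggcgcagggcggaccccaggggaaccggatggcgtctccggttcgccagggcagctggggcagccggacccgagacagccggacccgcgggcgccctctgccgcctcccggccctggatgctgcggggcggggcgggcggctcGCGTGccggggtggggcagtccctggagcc
CYP1A1: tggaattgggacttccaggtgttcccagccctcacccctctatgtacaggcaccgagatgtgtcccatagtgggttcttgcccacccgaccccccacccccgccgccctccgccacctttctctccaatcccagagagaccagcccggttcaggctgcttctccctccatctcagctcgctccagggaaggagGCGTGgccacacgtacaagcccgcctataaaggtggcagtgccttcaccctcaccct

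The KYNU window holds no match, and the AHRR and CYP1A1 windows hold 1 each, starting 30 and 57 bases before the gene's start. Promoter sequences of 8 members were matched by symbol, and the other 6 (TDO2, KMO, KYNU, HAAO, QPRT, AHR) hold no match. Over 27305 promoter windows of the same length, 31.9% held at least 1 match, so the 2 of 8 found here (25.0%) describe the letters of these windows and no more. Sites farther upstream, where CYP1A1 is known to be controlled, are outside them.

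The entry enzymes were dim in both groups. TDO2, tryptophan dioxygenase, read 3.05, 3.09 and 3.13 in wild type replicates 1 to 3 and 3.06, 3.28 and 3.12 in the transfected ones on probe set 205943_at, with overlapping groups. Its other probe set, 231702_at, had means of 3.06 ± 0.12 and 3.07 ± 0.03 (SD, n = 3 each). IDO1, the interferon-inducible indoleamine dioxygenase, read 4.78, 4.64 and 4.74 in wild type and 4.63, 4.70 and 4.87 in transfected arrays (210029_at). The IDO1 groups overlap, and the difference of 0.01 (SE 0.09) is smaller than the SD of 0.07 and 0.12 within them. Both enzymes lay under the median of all values in both groups, where RMA compresses differences and a change may not be detectable. KMO, TDO2 and IDO1 are the only members with probe sets under that median in both groups, 6 probe sets in all.

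KMO, the monooxygenase that hydroxylates kynurenine, was lower on 2 of its 3 probe sets. On the brightest, 205306_x_at, the wild type arrays read 4.33, 4.40 and 5.10 and the transfected arrays 3.42, 3.60 and 3.44, a difference of -1.12 (SE 0.19). Wild type replicate 3 stands above the other wild type arrays there, and without it the difference was -0.88. On 211138_s_at the values were 3.87, 4.08 and 4.31 against 3.28, 3.42 and 3.38, a difference of -0.73 (SE 0.12), again with no overlap. The third probe set, 205307_s_at, read 3.23 ± 0.17 and 3.18 ± 0.13, groups that overlap, and its difference of -0.05 was not past the threshold. All 3 probe set names end in _x_at or _s_at, the endings that the array maker gives to probe sets that can match more than 1 transcript, so no KMO value stands without that limit. The 20 neighbours of KMO on chromosome 1 had a median of 0.075, with 0 lower and 6 higher, beside 16.9% and 15.0% of all genes.

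KYNU, kynureninase, had the largest differences of the 10 genes. Its brightest probe set, 217388_s_at, read 11.09, 11.07 and 11.41 in wild type replicates 1 to 3 and 5.77, 6.03 and 7.04 in the transfected ones. The highest transfected array, replicate 3, lay 4.03 log2 units under the lowest wild type array. Means were 11.19 ± 0.19 and 6.28 ± 0.67, a difference of -4.91 (SE 0.30) or a 30.1-fold lower level, which is the fall of rank 8 among 19775 genes. Leaving out 1 array at a time gave -5.29 to -4.66, the first of these without transfected replicate 3.

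The other KYNU probe sets went the same way by different amounts. On 210663_s_at the wild type arrays read 10.34, 10.21 and 10.76 and the transfected arrays 5.83, 5.36 and 5.97, a difference of -4.72 (SE 0.19). Neither of the remaining probe sets has a name ending in _s_at or _x_at, and both were lower too. 204385_at read 9.69, 9.59 and 9.90 against 6.01, 6.09 and 6.53, a difference of -3.52 (SE 0.15). 210662_at read 5.71, 6.38 and 6.22 against 2.88, 2.89 and 2.82, a difference of -3.24 (SE 0.16). The transfected values of 210662_at are close to 2.35, the lowest value of the table, where differences are compressed, so this fold of 9.45 is likely too small. Transfected replicate 3 was the highest transfected array on 3 of these 4 probe sets and the lowest on 210662_at.

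**Figure D2:**
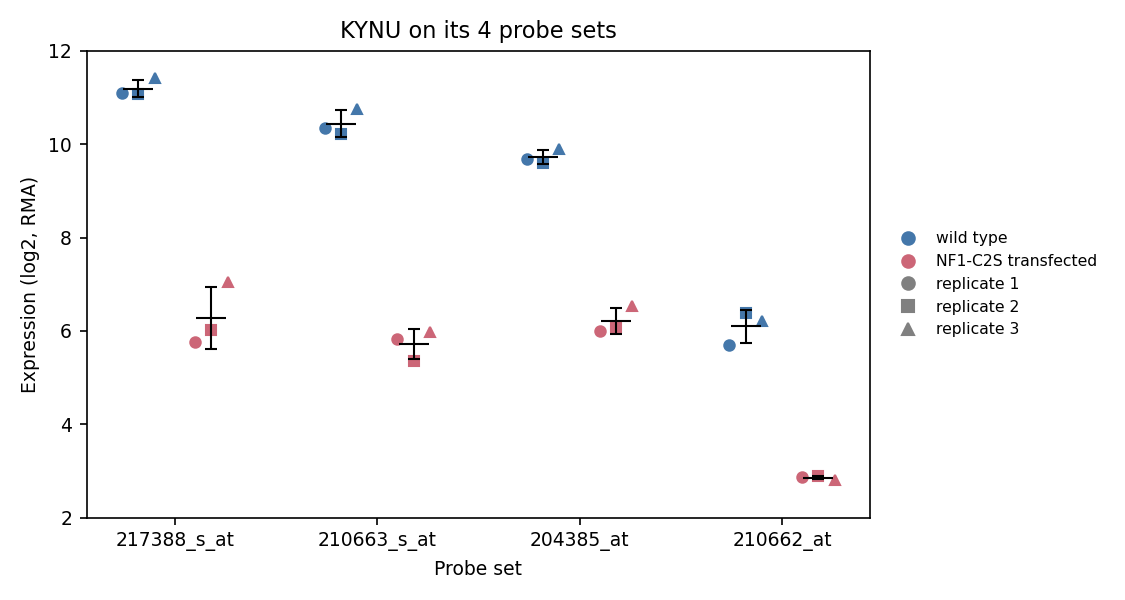
Expression (log2, RMA) of KYNU on its 4 probe sets in each wild type (blue) and transfected (red) array, with the mean and SD of each group (n = 3) in black and the replicate number as the symbol. Groups are far apart on each probe set, and on 217388_s_at transfected replicate 3 (7.04) sits above the other transfected arrays (5.77 and 6.03).

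None of the measured genes nearest to KYNU on chromosome 2 fell as far as KYNU did, though dim ones could not have shown such a fall. Its 20 nearest measured genes, 10 on each side in the order of the GRCh38.p14 gene table, had a median difference of 0.03. They ranged from -0.96 to 0.89, with 2 lower and 3 higher past the threshold, beside 16.9% and 15.0% of all genes. Among the 10 of them above the median level, the median was 0.06. That group was set by the mean over all 6 arrays, so a gene that fell far could drop out of it. Many genes just above that level also have less room above the lowest value than the KYNU difference. Any part of the chromosome region in the KYNU difference was not tested. Those directly beside KYNU, LRP1B (means 2.94 and 2.80) and QTMAN-AS1 (2.82 and 2.75), lay near 2.35, the lowest value of the table. A fall could hardly show there. The genes whose profile over the 6 arrays was nearest to that of KYNU, by the root mean square difference of mean-centred log2 values, were CCNG1 (0.147), MAT2B (0.210), S100P (0.257), CD24 (0.296) and HMMR (0.369). The nearest, cyclin G1, read 10.67, 10.65 and 10.75 in wild type and 5.50, 5.79 and 6.49 in transfected arrays, so that transfected replicate 3 was the highest of its group there too. With 6 arrays in 2 separate groups, this measure is set mostly by the size of the difference.

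Of the late enzymes, HAAO differed little and QPRT was past the threshold and higher on 1 of its 2 probe sets. HAAO, the dioxygenase that leads to quinolinic acid, read 6.39, 6.39 and 6.03 in wild type and 6.27, 6.22 and 6.14 in transfected arrays (205657_at), overlapping groups with a difference of -0.06 (SE 0.11), which was -0.18 without wild type replicate 3 and -0.001 without wild type replicate 1 or 2. QPRT, which carries quinolinic acid into NAD synthesis, gave unlike readings on its probe sets. 204044_at read 6.93, 6.90 and 7.04 against 6.84, 6.91 and 7.36, a difference of 0.08 (SE 0.14) with overlap, which turned to -0.08 without transfected replicate 3. 242414_at read 6.76, 6.58 and 6.73 against 7.23, 7.04 and 7.53, a difference of 0.58 (SE 0.13) with no overlap, past the threshold except without wild type replicate 2 (0.52). Both probe sets read higher, with only 242414_at past the threshold, and on 204044_at the sign depends on 1 array. The 20 neighbours of QPRT on chromosome 16 had a median of -0.18, with 9 lower and 1 higher, beside 16.9% and 15.0% of all genes.

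AHR, the receptor, was lower on its single probe set. 202820_at read 8.20, 8.26 and 8.40 in wild type and 6.80, 6.64 and 6.86 in transfected arrays, tight groups that do not overlap. The difference was -1.52 (SE 0.09), a 2.87-fold lower level, and lay between -1.57 and -1.46 when any 1 array was left out. Several neighbours of AHR on chromosome 7 were also lower. Of its 20 nearest measured genes 6 were past the threshold, all lower, beside 16.9% lower of all genes. These 6, among them SNX13 and TWIST1, had differences of -0.97 to -0.68, and the median over all 20 was -0.12. The 7 neighbours above the median level, a group set apart after the values were seen, had a median difference of -0.69, and 5 of them were past the threshold. Any part of these neighbours in the AHR difference was not tested.

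AHRR, which competes with AHR for ARNT and represses its targets, moved the other way. 229354_at read 5.90, 5.49 and 6.28 in wild type and 6.84, 6.97 and 7.22 in transfected arrays, with no overlap. Means were 5.89 ± 0.40 and 7.01 ± 0.19, a difference of 1.12 (SE 0.20) or 2.17-fold. The wild type group is the wider one, with replicate 3 at its top, and the difference was 0.92 without wild type replicate 2 and 1.32 without wild type replicate 3. AHRR lies near the end of the short arm of chromosome 5, where only 14 neighbours could be taken. Of these, 7 were higher and 2 lower, with a median of 0.43, beside 15.0% higher and 16.9% lower of all genes. The part of these neighbours in the AHRR difference was not tested.

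CYP1A1 and CYP1B1, related P450 monooxygenases that oxidize aromatic compounds and oestrogens, parted. CYP1A1, often taken as the readout of AHR activity, read 4.93, 4.74 and 5.18 in wild type and 4.55, 5.12 and 5.36 in transfected arrays (205749_at). Its groups overlap, the transfected replicates being both the lowest and the highest of the 6, and the difference of 0.06 (SE 0.21) ranged from -0.11 to 0.29 when 1 array was left out. The CYP1A1 means of 4.95 and 5.01 lie close to 4.82, the median of all values, where a change may not be detectable. Neighbours of CYP1A1 on chromosome 15 had a median of 0.40, with 12 of 20 higher and 1 lower, beside 15.0% higher and 16.9% lower of all genes.

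CYP1B1 was lower on all 4 of its probe sets, none of which overlapped between groups. On the brightest, 202436_s_at, wild type arrays read 9.78, 9.69 and 10.42 and transfected arrays 8.13, 8.04 and 8.00, a difference of -1.91 (SE 0.18) or a 3.75-fold lower level. 202437_s_at read 9.49, 9.63 and 10.19 against 7.59, 7.62 and 7.76, a difference of -2.11 (SE 0.17). The pattern within the wild type group was the same on each probe set, with replicate 3 above the other arrays. 202435_s_at read 9.30, 9.36 and 9.95 against 7.56, 7.44 and 7.54, a difference of -2.02 (SE 0.17). 202434_s_at read 6.16, 6.22 and 6.50 against 5.31, 4.86 and 4.65, a difference of -1.35 (SE 0.17). Without wild type replicate 3 the differences were -1.68, -1.90, -1.82 and -1.25 in the same order. All 4 probe set names end in _s_at, so CYP1B1 has no value from another kind of probe set. Its 20 neighbours on chromosome 2 had a median of 0.03, with 4 lower and 2 higher, beside 16.9% and 15.0% of all genes.

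**Figure D3:**
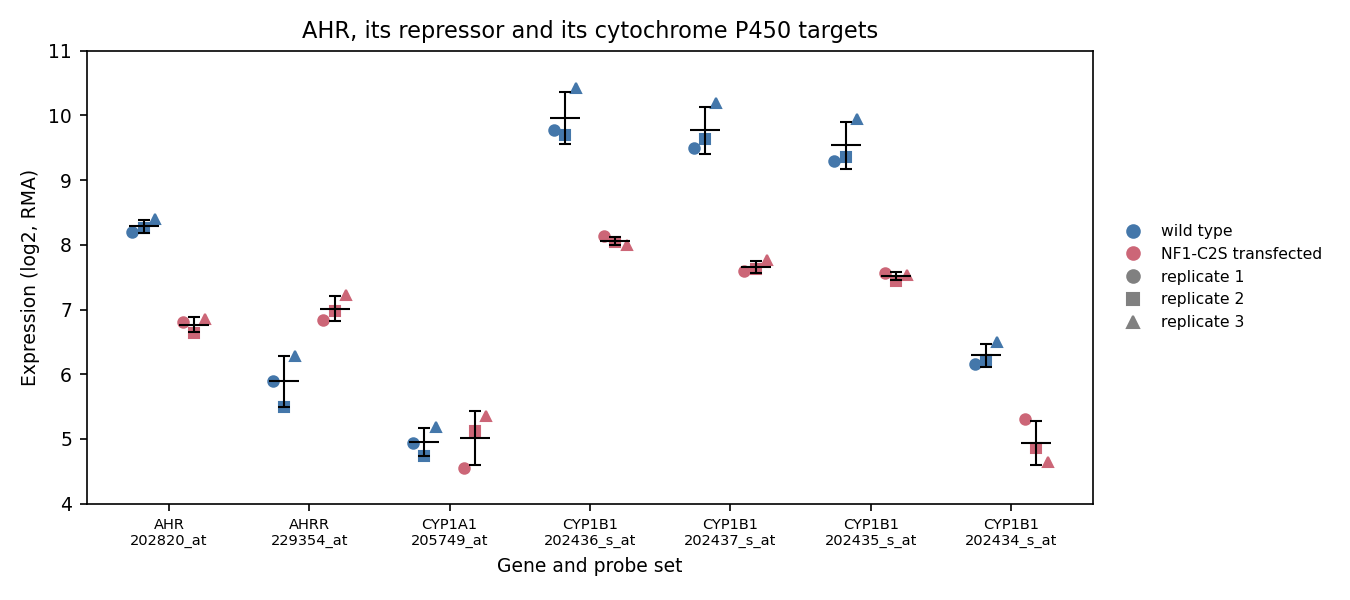
Expression (log2, RMA) of AHR, AHRR, CYP1A1 and the 4 CYP1B1 probe sets in each wild type (blue) and transfected (red) array, with the mean and SD of each group (n = 3) in black. AHR and CYP1B1 are lower and AHRR higher on the transfected arrays, CYP1A1 overlaps, and wild type replicate 3 (triangle) tops its group on each of these probe sets.

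**Figure D4:**
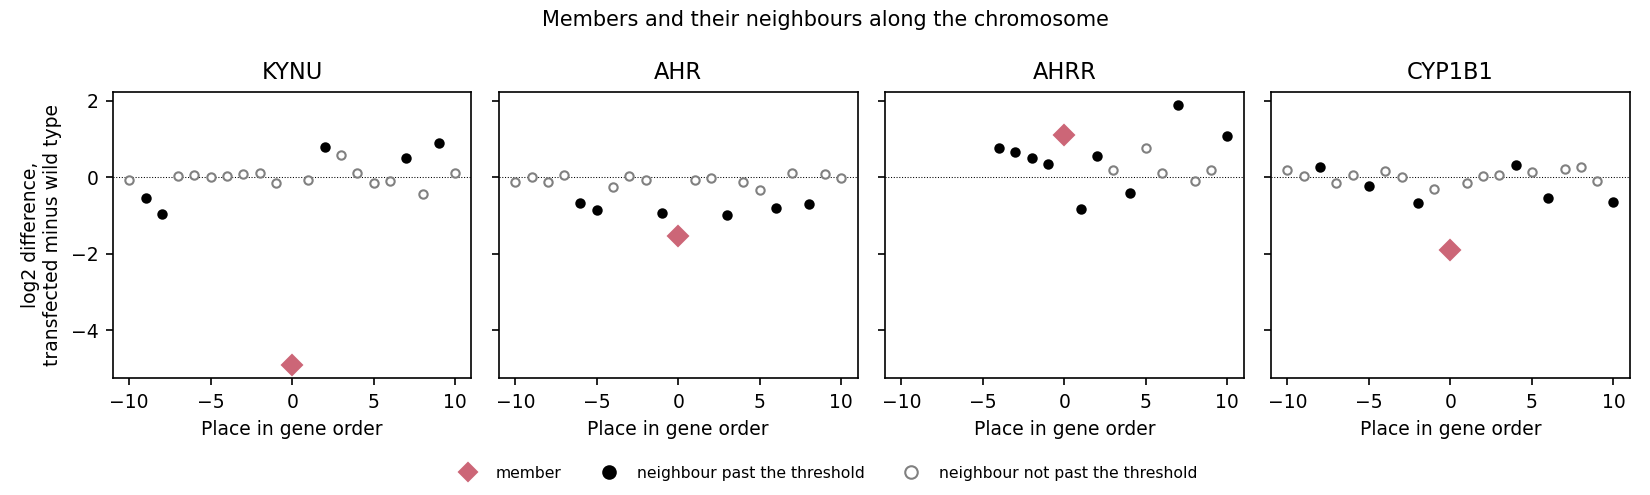
log2 difference of KYNU, AHR, AHRR and CYP1B1 (red diamonds) and of up to 10 measured genes on each side in chromosome order, with filled points past the threshold. KYNU at -4.91 and CYP1B1 at -1.91 stand apart from neighbours centred near 0, though the genes directly beside KYNU are too dim to show a fall. AHR has some lower genes beside it, and AHRR mostly higher ones.

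The other genes of these pathways were taken from 5 lists, each gene by its brightest probe set, with limma's adjusted p over 19775 genes, of which 31.9% passed (16.9% lower, 15.0% higher). Of 14 other kynurenine and NAD genes, 1 rose, 2 fell and 11 did not pass (21.4% past the threshold), with a median of -0.03 beside 0.00 over all genes. NAMPT, which salvages nicotinamide for NAD, rose from 10.35, 10.46 and 10.76 to 12.41, 12.27 and 12.49, a difference of 1.87 (SE 0.12, limma adjusted p = 3.47e-05). NMNAT1, which makes nuclear NAD, fell by 0.61 (limma adjusted p = 0.00789), and NAPRT, which uses nicotinic acid, fell by 0.50 (adjusted p = 0.00104). When their probe sets were averaged the calls of NMNAT1 and NAPRT ended, at -0.38 and -0.23 (adjusted p = 0.0903 and 0.224). The enzymes of this list that form kynurenine or transaminate it did not pass: AFMID, which frees kynurenine, read -0.22 (limma adjusted p = 0.106, or 0.0473 with the replicate block), and the aminotransferases KYAT1, KYAT3, AADAT and GOT2 read 0.08, -0.0033, 0.07 and 0.08.

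Of 14 genes of tryptophan transport and use, 1 rose and 4 fell, while 9 did not pass (35.7%), with a median of -0.08. SLC7A5, the transporter that exchanges tryptophan and kynurenine across the membrane, fell from 11.47, 11.58 and 11.30 to 9.64, 9.73 and 9.48, a difference of -1.83 (SE 0.10, limma adjusted p = 1.96e-05). Its partner chain SLC3A2 read 10.63 ± 0.07 and 10.53 ± 0.24 and did not pass (adjusted p = 0.636). The cystine transporter SLC7A11 fell by 1.10 (adjusted p = 0.000176) and the tryptophan carrier SLC36A4 by 0.82 (adjusted p = 0.00215). MAOA, which degrades serotonin, rose from 5.32 ± 0.11 to 5.98 ± 0.28 (difference 0.66, adjusted p = 0.00958). Among the genes that did not pass was the tryptophanyl-tRNA synthetase WARS1, an interferon-inducible user of tryptophan, at 0.20 (adjusted p = 0.158).

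Of 11 measured genes of the AHR complex and its partners, 2 rose, 2 fell and 7 did not pass (36.4%), with a median of 0.05. The dimerization partner ARNT read 8.06, 8.14 and 8.33 in wild type and 8.43, 8.43 and 8.24 in transfected arrays, overlapping groups with a difference of 0.19 (limma adjusted p = 0.203). ARNT2, its paralog, read 0.32 (adjusted p = 0.207, or 0.0427 with the replicate block). The chaperone genes HSP90AA1, HSP90AB1 and PTGES3, which hold unliganded AHR, read 0.01, 0.05 and -0.04. RELB, an NF-kappaB subunit that can pair with AHR, rose by 0.97 (adjusted p = 0.000124), and the coactivator NCOA1 rose by 0.91 (adjusted p = 0.000804). The acetyltransferase EP300 fell from 6.73, 7.01 and 7.07 to 4.65, 5.63 and 5.99, a difference of -1.51 (SE 0.31, adjusted p = 0.00786) with a wide transfected group. KLF6, a factor that can bind with AHR at other sites, fell by 0.61 (adjusted p = 0.0157), a call that ended without wild type replicate 2 (adjusted p = 0.0553) or transfected replicate 2 (0.0537).

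Of 13 measured AHR targets outside the 10 genes, 0 rose and 2 fell, while 11 did not pass (15.4%), with a median of 0.01. In the same limma fit 0 targets were higher and 3 lower at an unadjusted p under 0.05. EREG, an EGF receptor ligand, fell from 10.74, 10.90 and 10.83 to 6.77, 6.61 and 7.03, a difference of -4.02 (SE 0.11, limma adjusted p = 1.76e-06), which was -2.55 when its probe sets were averaged. The efflux pump ABCG2 fell by 0.77 (adjusted p = 0.0206), a call that ended without wild type replicate 2 (adjusted p = 0.073) or 3 (0.0779). TIPARP, a direct target that also curbs AHR, read 9.51 ± 0.07 and 9.66 ± 0.05 and did not pass (difference 0.16, adjusted p = 0.148). The quinone reductase NQO1 read -0.28 (adjusted p = 0.081, or 0.0346 with the replicate block), and CYP1A2 and ALDH3A1 read -0.13 and 0.11 and did not pass.

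Of 11 measured genes of interferon gamma signalling, the pathway that induces IDO1, 4 rose, 2 fell and 5 did not pass (54.5%), with a median of 0.06. The feedback inhibitor SOCS1 rose from 5.41 ± 0.33 to 6.55 ± 0.05 (difference 1.14, limma adjusted p = 0.000995, or a difference of 0.42 when its probe sets were averaged), and IRF9 rose by 0.70 (adjusted p = 0.00682). IRF8 fell by 0.71 (adjusted p = 0.000991). The guanylate-binding protein gene GBP1 rose by 0.32 (adjusted p = 0.0495), a call at the edge of the threshold that ended without wild type replicate 1 or 3 or transfected replicate 2 or 3, with median centring of the arrays (0.0692), with its probe sets averaged (0.192) and without _x_at and _s_at probe sets (0.181). IRF1, a factor that induces IDO1, read 7.19 ± 0.10 and 7.36 ± 0.16 and did not pass (adjusted p = 0.269). The count of genes that rose was 2 in place of 4 when wild type replicate 1 or transfected replicate 2 or 3 was left out.

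**Figure D5:**
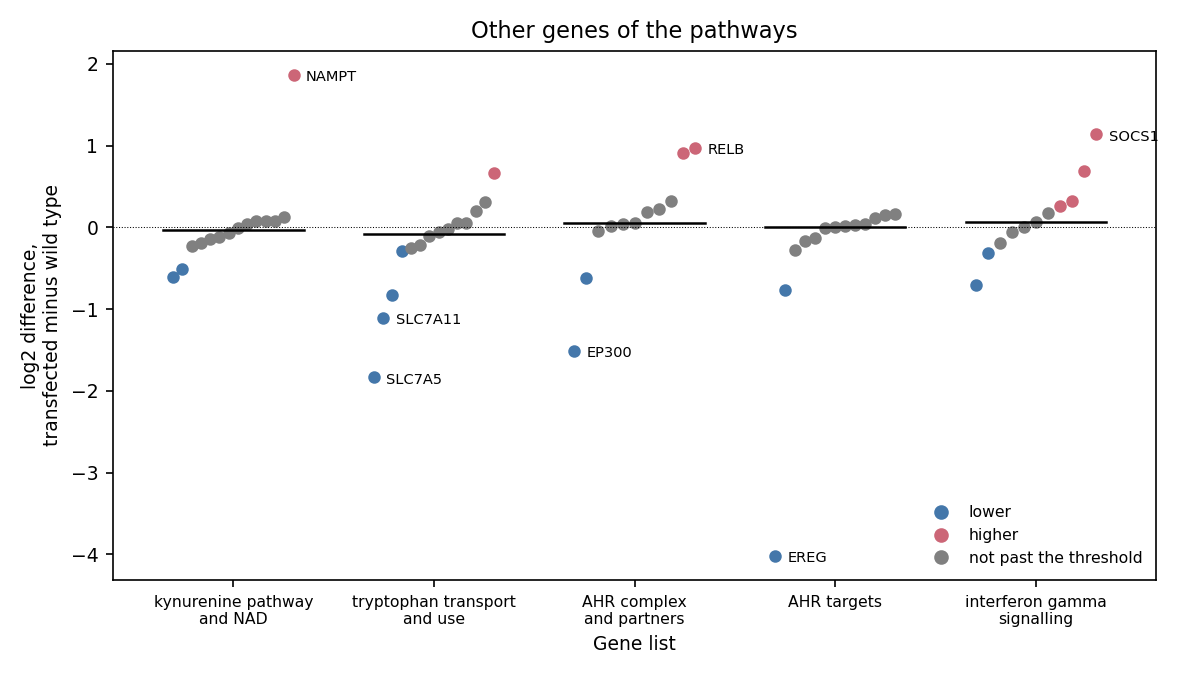
log2 difference of each measured gene in the 5 lists, sorted within a list, with a black line at the list's median and colours for the limma call. The medians lie between -0.08 and 0.06, and single genes stand out: NAMPT upward, SLC7A5, EP300 and EREG downward.

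KYNU, KMO and IDO1 are also genes of macrophages and dendritic cells, and TDO2, HAAO and CYP1A1 of hepatocytes. Of 6 macrophage and dendritic cell markers measured, 3 lay under the median of all values in each group, and their summed log2 level ran from 28.75 to 29.29 over the wild type arrays and from 28.39 to 28.77 over the transfected arrays. CD14 rose by 0.83 (limma adjusted p = 0.00947) and ITGAM fell by 1.21 (adjusted p = 0.00534), opposite changes that partly cancel in such a sum. PTPRC, which defines white blood cells, read 3.65 and 3.86. Of the 4 hepatocyte markers 0 passed (limma, with 0 at an unadjusted p under 0.05), and their sum ran from 18.67 to 19.46 and from 18.68 to 19.15. Only 1 of these 4 lay under the median of all values in the wild type group, and 2 in the transfected group. The part of such cells in the member differences was not tested.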

How the data were processed

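The deposited table holds log2 expression values per probe set, with a column for each of the 6 arrays, and per the submitters' processing notes the authors made these log2 values with RMA, in a version that the notes leave out. Arrays have no read depth, and their number limits the precision. From 54675 rows, 62 control probe sets were left out. Genes were named through the platform annotation, updated by gene identifier to GRCh38.p14 symbols (41091 probe sets with 1 gene, 1801 with several, 11721 with none), and a gene was represented by its brightest probe set that names it alone.

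Groups came from the labels. The groups were compared with limma 3.58.1 in R 4.3.3 (lmFit and eBayes, two-sided), with Benjamini-Hochberg adjustment over all 54613 probe sets for members and over 19775 genes for the lists, and a threshold of 0.05 on the adjusted p. The fit was also run on simulated data with independent noise for each array, which does not cover deviations shared between arrays. The members and lists were chosen with earlier results of these data known. Named were every member, in each list up to 4 called genes with the largest changes, and the 5 profiles nearest to KYNU. Other genes were named for their role or after their values were seen. Some genes of the lists are not reported here.

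Arrays of the same replicate number shared deviations from their group means (correlations over probe sets of 0.398, 0.238 and 0.140), all over 0.1, though wild type 2 with transfected 3 gave 0.142. The pairing comes only from the numbers in the titles.

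Alternatives were 3 other normalizations, array weights, another variance prior, a filter on dim probe sets, the replicate block, other choices of probe set, and leaving out each array.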

Additional observations from a re-analysis of the deposited data

How the results depend on the processing

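The calls of KYNU, KMO, AHR, AHRR and CYP1B1 by their brightest probe sets kept direction and side of the threshold under every alternative run that measures them, with differences when 1 array was left out of -5.29 to -4.66, -1.26 to -0.88, -1.57 to -1.46, 0.92 to 1.32 and -2.04 to -1.68. The dim filter removes KMO, and KMO and CYP1B1 have no probe set outside the _x_at and _s_at kinds. The 11 lower member probe sets stayed 11 when any 1 array was left out and became 8 with the dim filter. They became 3 without _x_at and _s_at probe sets, a kind to which 9 of the 20 belong. The higher ones numbered 1 to 2 when 1 array was left out. Of the 5 members not past the threshold, HAAO kept its sign when 1 array was left out (-0.18 to -0.001), and the others did not: TDO2 ranged from -0.0006 to 0.11, IDO1 from -0.055 to 0.065, QPRT from -0.0808 to 0.18 and CYP1A1 from -0.11 to 0.29.

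The replicate block (3 lower and 1 higher among kynurenine and NAD genes, 2 and 3 in the AHR complex, 3 and 0 among AHR targets) added AFMID, ARNT2 and NQO1 and changed no other call in these lists or among the members. Lower kynurenine and NAD genes also numbered 3 with array weights, with the other variance prior and with the dim filter. Lower AHR targets also numbered 3 with the other variance prior. With the mean of probe sets, 1 kynurenine and NAD gene and 3 genes of tryptophan transport and use were lower, and 2 interferon gamma genes higher. Without _x_at and _s_at probe sets, 3 genes of tryptophan transport and use and 1 AHR complex gene were lower, and 1 interferon gamma gene was lower and 2 higher. With 1 array left out, counts ran from 1 to 2 lower in the AHR complex and among AHR targets, and 2 to 4 higher in interferon gamma signalling. In tryptophan transport and use they ran from 3 to 4 lower and 1 to 2 higher. The cause was not tested beyond the fewer arrays or probe sets these settings use. Signals near background limit TDO2, IDO1 and KMO, and CYP1A1 lay close to the median of all values.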
